A study of Mus musculus with 8 samples.

Results

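The STAT family of transcription factors was described in mouse CD8+ T cells, lymphocytes that kill infected or malignant cells. The members were 6 genes, Stat2, Stat3, Stat4, Stat5a, Stat5b and Stat6, found by exact symbol among the 24421 genes of the count tables. All 6 passed the filter on low counts, together with 10396 genes in all. Sequencing of 3' transcript ends gave 8 libraries: 4 control libraries of the genotype LKB1 wild type and 4 LKB1-deficient libraries. Both groups were naive cells stimulated for 48 hours with anti-CD3 and anti-CD28 antibodies bound to the plate. LKB1 is a kinase encoded by Stk11. The sources used here do not give the mouse strain, the age of the animals, the way LKB1 was removed or whether each replicate came from its own animal. The p-values thus measure only the spread between these samples. Stk11 was at 67.8 to 101 CPM (counts relative to the library size, scaled by TMM) in the control and 64.4 to 107.5 CPM in the LKB1-deficient libraries, with a log2 fold change of -0.03 ± 0.18 (SE), whose sign differed between alternatives. Because 3' ends were counted and the deleted stretch is not stated, these values do not check the genotype.

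STAT proteins wait in the cytoplasm until a cytokine binds its receptor. Janus kinases on the receptor then phosphorylate them, and paired STATs enter the nucleus and bind short palindromes called GAS elements, while STAT2 binds interferon-stimulated response elements (ISREs) as part of a complex with IRF9. In CD8+ T cells STAT5a and STAT5b carry the signals of IL-2, IL-7 and IL-15, STAT4 those of IL-12, STAT6 that of IL-4, STAT3 those of IL-6, IL-10 and IL-21, and STAT2 that of type I interferon. Phosphorylation switches these proteins on, and the libraries measured their transcripts, not their phosphorylation.

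Control libraries held 7090252 to 12211930 gene counts and LKB1-deficient libraries 3454388 to 6356125. The lowest count of any member in any library was 152, for Stat2. LKB1-deficient replicates 2 and 4 stood apart on the first principal component (56.4% of the variance), at 51.7 and 54.4 where replicates 1 and 3 had 12.5 and 6.79 and the controls -37.9 to -21.7. Libraries of a group differed by more than sampling noise, and none was taken as a repeat of another. The 5 markers of CD8 T cells had counts in all 8 libraries. Their summed level was 2984 to 3533 CPM in the control and 1498 to 2428 CPM in the LKB1-deficient libraries. In the test described below, 3 of the 5 (Cd3d, Cd3g and Cd8a) were lower, where 10.1% of all tested genes were. The others did not pass: Cd8b1 had a log2 fold change of -0.48, and Cd3e went the other way (0.32). In bulk RNA, fewer cells of a type and less RNA per cell cannot be told apart.

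The members are spread over 3 chromosomes of GRCm38, where the annotation lists each as a protein-coding gene. Stat4 is on the plus strand of chromosome 1 (51987148 to 52107189). Stat6 (127642986 to 127660957) and Stat2 (128270559 to 128292849) lie on the plus strand of chromosome 10. On chromosome 11, Stat5b (100780731 to 100850724, minus strand), Stat5a (100859351 to 100885169, plus strand) and Stat3 (100885098 to 100939540, minus strand) stand side by side. Stat5b and Stat5a point away from each other across 8626 bases, and the annotated 3' ends of Stat5a and Stat3 overlap by 72 bases on opposite strands. The libraries keep the strand per the labels' protocols, while the strand setting used for counting is unknown. Stat5a and Stat5b transcripts share 942 of the 3864 words of 25 bases in the longest coding transcript of Stat5a (24.4%). In the last 500 bases, nearest to where 3' libraries are read, the 2 transcripts share no such word, and no other pair of members shares any over the whole transcript.

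Promoter windows of 300 bases, reaching from 250 bases before to 50 after a start site, were taken from RefSeq (GRCm38.p6), which lists 9 for the 6 members. They were searched on both strands for the STAT palindromes TTCNNNGAA and TTCNNNNGAA and for the ISRE core GAAANNGAAA. Over all 32851 mouse promoter windows of that length, 8.3%, 6.95% and 3.44% hold them. Matches were found in 2 of the 9 windows, those of Stat2 and of the downstream start site of Stat4, and they are shown because the STAT2 complex itself binds the ISRE. Capitals mark the matches.
Stat2, chr10:128270248-128270547, plus strand: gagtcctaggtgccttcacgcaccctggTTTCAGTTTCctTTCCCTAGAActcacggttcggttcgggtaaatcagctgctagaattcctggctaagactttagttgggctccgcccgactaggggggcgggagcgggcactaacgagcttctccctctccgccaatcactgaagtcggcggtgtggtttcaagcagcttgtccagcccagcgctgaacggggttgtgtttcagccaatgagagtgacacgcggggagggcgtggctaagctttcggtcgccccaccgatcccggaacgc
Stat4 downstream start, chr1:52007990-52008289, plus strand: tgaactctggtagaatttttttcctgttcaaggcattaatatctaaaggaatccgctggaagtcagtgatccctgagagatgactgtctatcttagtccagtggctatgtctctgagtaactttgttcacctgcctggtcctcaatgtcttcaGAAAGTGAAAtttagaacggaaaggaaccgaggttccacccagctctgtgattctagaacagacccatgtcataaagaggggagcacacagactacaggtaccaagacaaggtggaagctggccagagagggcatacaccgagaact
The Stat2 window holds an ISRE core read on the opposite strand, TTTCAGTTTC, from 222 bases before the start site, and 2 bases after it the palindrome TTCCCTAGAA from 210 bases before. The Stat4 window holds the core GAAAGTGAAA from 97 bases before the start site. These matches are descriptions of the letters and not evidence of binding.

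The windows of the STAT5 pair held none of the motifs and are shown for what they share, since Stat5a was the member that passed the test described next and Stat5b its closest relative. Capitals mark runs of at least 12 bases that are the same in both.
Stat5a, chr11:100860234-100860533, plus strand: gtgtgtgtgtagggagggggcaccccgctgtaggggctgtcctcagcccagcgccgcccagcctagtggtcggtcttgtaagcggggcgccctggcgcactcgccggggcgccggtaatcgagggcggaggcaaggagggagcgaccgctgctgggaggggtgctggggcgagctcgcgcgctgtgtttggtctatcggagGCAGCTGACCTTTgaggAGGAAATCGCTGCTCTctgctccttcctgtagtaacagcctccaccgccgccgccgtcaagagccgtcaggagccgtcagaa
Stat5b downstream start, chr11:100822521-100822820, minus strand: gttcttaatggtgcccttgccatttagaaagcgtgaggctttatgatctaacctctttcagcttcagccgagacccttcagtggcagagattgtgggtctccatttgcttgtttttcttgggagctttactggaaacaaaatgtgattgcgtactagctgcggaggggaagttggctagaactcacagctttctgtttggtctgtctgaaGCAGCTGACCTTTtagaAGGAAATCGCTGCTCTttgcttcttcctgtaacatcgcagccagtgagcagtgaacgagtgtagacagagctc
The windows share 2 such runs, 29 bases in all, beginning 49 bases before the start site of Stat5a and 40 bases before that of Stat5b. The longer run of 16 bases occurs in only these 2 of the 32851 windows. The Stat5a window shown, like that of Stat5b, lies downstream of the other one listed for its gene. The other listed window of each gene shares no run of that length with its counterpart.

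Among the members, Stat5a was higher in the LKB1-deficient cells and none was lower at an adjusted p of 0.05, against 12.4% of all tested genes higher, 10.1% lower and 22.5% called in either direction. The test was edgeR's quasi-likelihood test, fitted on all genes with Benjamini-Hochberg adjustment over all of them. The median log2 fold change of the 6 members was 0.00, and so was that of all tested genes. The median absolute log2 fold change was 0.21 for the members and 0.34 for all genes. The groups did not overlap for Stat5a and Stat2, 2 of the 6, while 26.1% of all tested genes had groups that did not overlap. At an unadjusted p under 0.05 stood 2 members, Stat2 and Stat5a, and 39.3% of all genes.

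**Figure D1:**
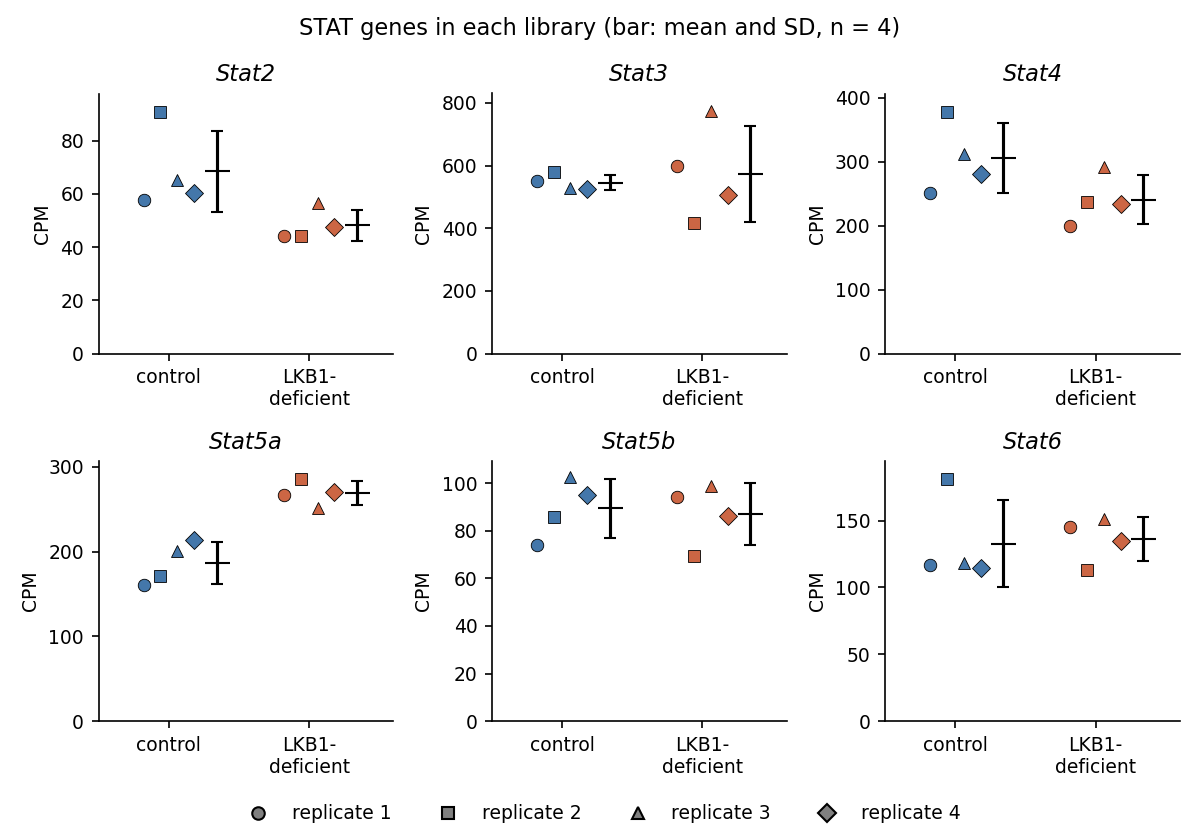
CPM of each STAT gene (vertical axis, from 0) in the 4 control libraries (blue) and the 4 LKB1-deficient libraries (orange), with symbols for the replicate number and a bar for mean and SD. The groups separate for Stat5a (160.45 to 214 against 252 to 286 CPM) and for Stat2 (57.7 to 90.7 against 44.2 to 56.7 CPM), and overlap for the other members.

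STAT5a carries IL-2, IL-7 and IL-15 signals that drive growth and survival of T cells. Stat5a was at 160.45, 171, 201 and 214 CPM in control replicates 1 to 4 and at 267, 286, 252 and 270.4 CPM in LKB1-deficient replicates 1 to 4. Every LKB1-deficient library lay above every control library, and the LKB1-deficient libraries lay closer together than the controls. The level went from 187 ± 25.1 to 269 ± 14.1 CPM (SD, n = 4 per group), 1.44-fold (log2 fold change 0.53 ± 0.14 SE, edgeR adjusted p = 0.0233). The direction was the same under all 19 alternatives, with log2 fold changes of 0.35 to 0.59, but the call was kept in only 10 of them. It was lost on leaving out any of control replicates 1, 2 and 3 (adjusted p = 0.0577, 0.0537 and 0.0554), either of LKB1-deficient replicates 2 and 4 (0.0604 and 0.0579) or both of the latter (0.134). It was lost too with upper quartile scaling (log2 fold change 0.42, adjusted p = 0.0652) and total count scaling (0.35, 0.125). Under these scalings the median over all genes itself shifted by -0.10 and -0.16 in log2.

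Stat5b, the close relative of Stat5a that answers the same cytokines, was not called. Its values were 74.0, 85.8, 102 and 95.1 CPM in control replicates 1 to 4 and 94.0, 69.4, 98.8 and 86.0 CPM in LKB1-deficient replicates 1 to 4. The groups overlapped over most of their range, and the lowest value of all was that of LKB1-deficient replicate 2, the library highest for Stat5a. The means were 89.3 ± 12.3 and 87 ± 12.9 CPM (log2 fold change -0.04 ± 0.15, adjusted p = 0.884). An interval of 2 SE runs from -0.34 to 0.26.

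A ratio of counts within a library does not depend on how libraries are scaled. In control replicates 1 to 4 the ratio of Stat5a to Stat5b was 2.17, 1.996, 1.97 and 2.25, and in LKB1-deficient replicates 1 to 4 it was 2.84, 4.13, 2.55 and 3.14. All LKB1-deficient libraries lay above all controls, and replicate 2 stood highest. The mean went from 2.1 ± 0.137 to 3.16 ± 0.686, a difference of 0.57 in log2 or 1.49-fold. The exact two-sided permutation test gave p = 0.0286, the smallest that 4 against 4 libraries allow, and 0.0857 after adjustment over the 3 ratios computed. The difference did not pass, and a ratio at that smallest p cannot pass this adjustment unless another ratio reaches it too. Without LKB1-deficient replicate 2 the difference was smaller, at 0.44. The adjusted p was 0.0429 there, where the ratio of Stat4 to Stat6 reached the same value, so it is not stronger evidence.

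**Figure D2:**
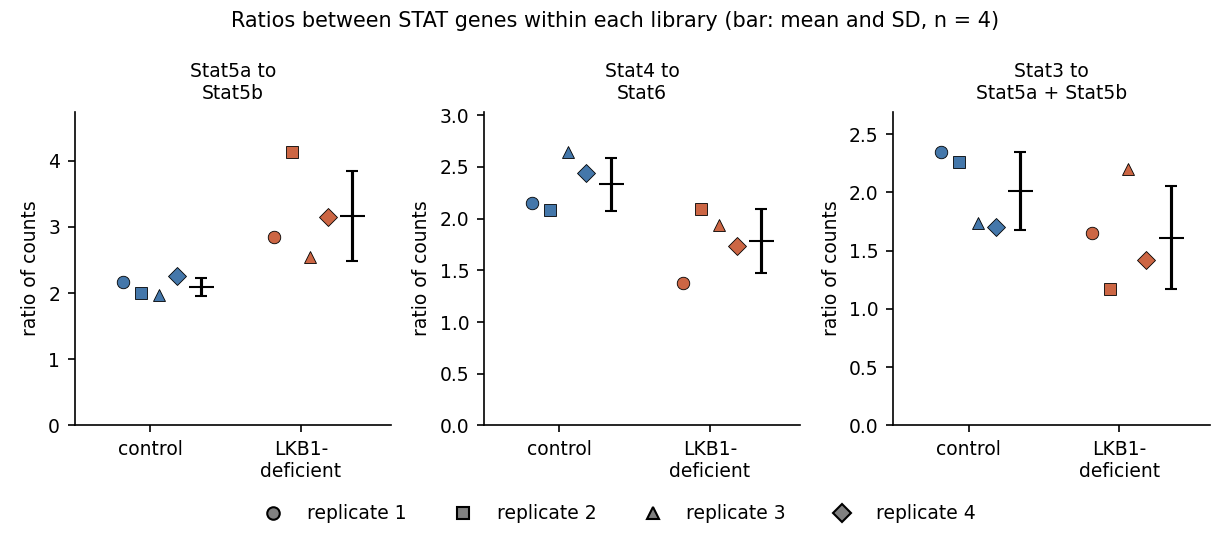
Ratios of counts between STAT genes within each library (vertical axes, from 0), with symbols for the replicate number and a bar for mean and SD (n = 4). Control libraries have a ratio of Stat5a to Stat5b of 1.97 to 2.25 and LKB1-deficient libraries one of 2.55 to 4.13, while the other ratios overlap between the groups.

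Stat2, whose protein joins IRF9 to switch on interferon-stimulated genes, was the member with the next smallest p. It stood at 57.7, 90.7, 65.4 and 60.3 CPM in control replicates 1 to 4 and at 44.2, 44.3, 56.7 and 47.7 CPM in LKB1-deficient replicates 1 to 4. All LKB1-deficient libraries were below all controls, but LKB1-deficient replicate 3 lay just under control replicate 1, and control replicate 2 stood well above the other controls. The means were 68.5 ± 15.1 and 48.2 ± 5.87 CPM (log2 fold change -0.50 ± 0.17, edgeR adjusted p = 0.0544), which just missed the threshold. An interval of 2 SE ran from -0.84 to -0.16. The log2 fold change was negative under all 19 alternatives (-0.66 to -0.34), and 7 of them called Stat2 lower. These included upper quartile scaling (adjusted p = 0.0285), total count scaling (0.0238), DESeq2 (0.0378) and the fit without LKB1-deficient replicate 3 (log2 fold change -0.60, adjusted p = 0.0367). Under upper quartile and total count scaling the median over all genes itself shifted by -0.10 and -0.16 in log2. Of all tested genes 13.9% and 15.2% were called lower with these scalings and 12.9% with DESeq2, against 10.1% in the main fit. Without LKB1-deficient replicates 2 and 4 together the adjusted p of Stat2 was 0.288.

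STAT4 relays IL-12 signals that favour interferon-gamma production. Stat4 was at 252, 379, 312 and 281 CPM in control replicates 1 to 4 and at 199.8, 237, 292 and 235 CPM in LKB1-deficient replicates 1 to 4. Every LKB1-deficient library was below the control mean, yet the groups overlapped because LKB1-deficient replicate 3 exceeded control replicates 1 and 4. The means were 306 ± 54.3 and 241 ± 38.2 CPM (log2 fold change -0.34 ± 0.17, edgeR adjusted p = 0.16). Stat4 was negative and not called under all 19 alternatives, with log2 fold changes of -0.51 to -0.23 and adjusted p-values of 0.0647 to 0.449.

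STAT3 answers IL-6, IL-10 and IL-21. Its transcript was at 549, 581, 529 and 526 CPM in control replicates 1 to 4 and at 598, 418, 773 and 505 CPM in LKB1-deficient replicates 1 to 4. The control libraries lay close together, while LKB1-deficient replicates 1 and 3 were above and replicates 2 and 4 below all of them. The coefficient of variation was 4.66% in the control and 26.5% in the LKB1-deficient libraries; whether the spreads differ was not tested. Stat3 averaged 546 ± 25.4 and 573 ± 152 CPM (log2 fold change 0.07 ± 0.19, edgeR adjusted p = 0.813), and the sign turned with both other scalings, upper quartile (-0.02) and total count (-0.07). Without LKB1-deficient replicate 3 the log2 fold change was -0.12, and without LKB1-deficient replicates 2 and 4 together it was 0.33 (edgeR adjusted p = 0.259).

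STAT6 answers IL-4 and IL-13 and favours type 2 cytokine programmes. Stat6 was at 117, 181, 118 and 115 CPM in control replicates 1 to 4 and at 145, 113, 151 and 135 CPM in LKB1-deficient replicates 1 to 4. Control replicate 2 stood far above the other controls, and 3 of the 4 LKB1-deficient libraries lay between it and the rest. The means were 133 ± 32.3 and 136 ± 16.6 CPM (log2 fold change 0.04 ± 0.18, edgeR adjusted p = 0.9), a sign that turned with upper quartile (-0.06) and total count (-0.12) scaling of the libraries. In control replicates 1 to 4 the ratio of Stat4 to Stat6 was 2.15, 2.09, 2.64 and 2.44, and in LKB1-deficient replicates 1 to 4 it was 1.37, 2.09, 1.94 and 1.74. The replicates numbered 2 of both groups were nearly equal, so the groups overlapped slightly. The log2 difference of this ratio was -0.40 (exact permutation p = 0.0571, adjusted p = 0.0857). Without LKB1-deficient replicate 2 it was -0.48 (adjusted p = 0.0429, a value shared with the ratio of Stat5a to Stat5b). The ratio of Stat3 to the sum of Stat5a and Stat5b averaged 2.01 ± 0.338 and 1.61 ± 0.44, a log2 difference of -0.34 (exact permutation p = 0.143, adjusted p = 0.143).

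**Figure D3:**
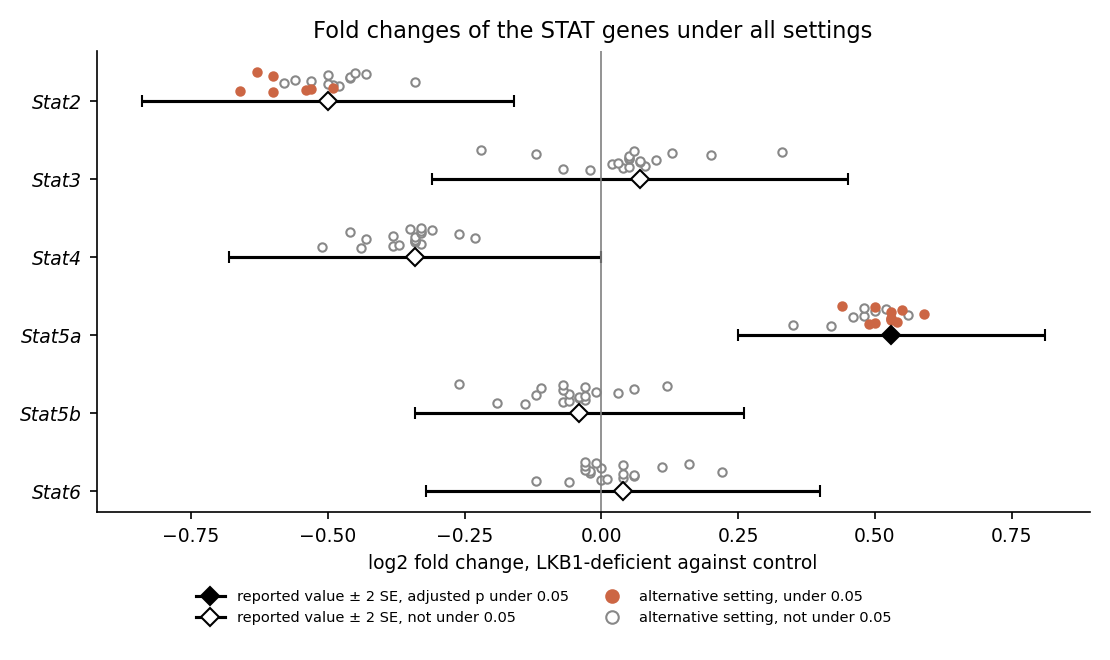
Log2 fold change, LKB1-deficient against control (horizontal axis), of each STAT gene: diamonds are the reported values with bars of 2 SE, filled where the adjusted p is under 0.05, and circles are the 19 alternative settings. Stat5a stays at 0.35 to 0.59 and Stat2 at -0.66 to -0.34, while Stat3, Stat5b and Stat6 lie on both sides of 0.

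Several members had their highest or lowest value in the same library of a group. How many of all tested genes did so was not counted, so this is not read as a trait of the family. Among the controls, replicate 2 was the highest library for Stat2, Stat3, Stat4 and Stat6, and replicate 1 the lowest for Stat2, Stat4, Stat5a and Stat5b. Among the LKB1-deficient libraries, replicate 3 was the highest for the 5 members other than Stat5a, for which it was the lowest. LKB1-deficient replicate 2 was the highest for Stat5a and the lowest for Stat3, Stat5b and Stat6. The genes with the profile nearest to each member over the 8 libraries, by root mean square distance of centred log2 CPM among 7698 candidates, were Agps (0.07), Adap1 and Eaf1 (both 0.08) for Stat5a and Lonp2 (0.10), Cisd1 and Capzb (both 0.11) for Stat2. Those nearest to Stat4 were Vrk2 (0.10), Parp2 (0.11) and Unk (0.12). For Stat3 they were Pced1a, Tmed10 and Snupn (each 0.09), for Stat5b Gde1, Zfp511 and Pdia6 (each 0.06), and for Stat6 G2e3 (0.11), Rngtt and Hnrnpk (both 0.12).

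**Figure D4:**
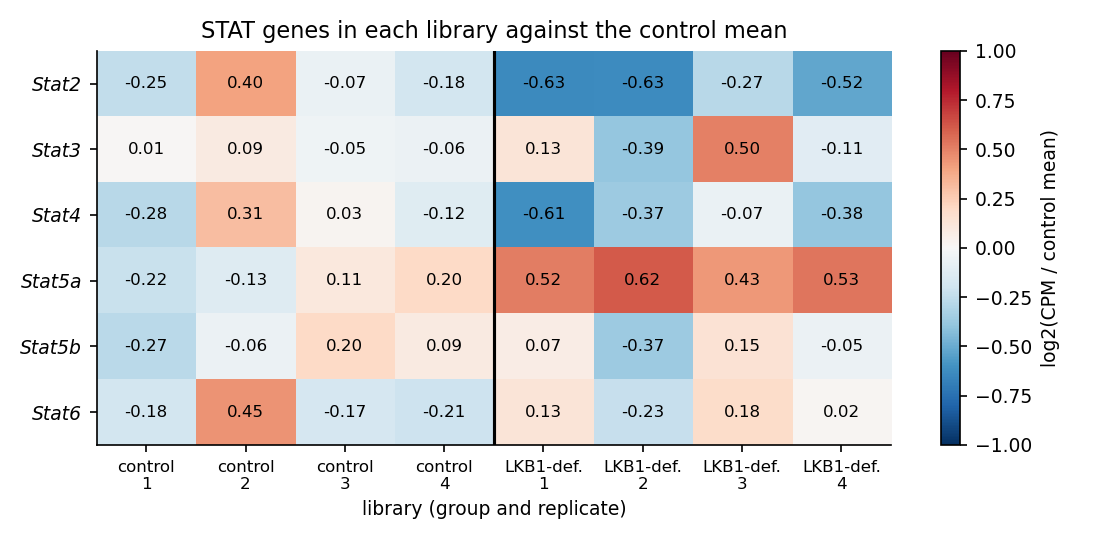
Log2 of the CPM of each STAT gene over its control mean (colour and printed value) in the 8 libraries (columns, group and replicate). Stat5a is between 0.43 and 0.62 in all 4 LKB1-deficient libraries, and the other members are higher in LKB1-deficient replicate 3 than in the other LKB1-deficient libraries.

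Levels were also ordered per kilobase of the longest coding transcript; 3' libraries read chiefly transcript ends, so this order leans on a length correction that may not suit them. In the controls it ran from Stat4 (103 CPM per kb) and Stat3 (90.4), which overlapped, through Stat5a (48) and Stat6 (35.2), which overlapped, to Stat5b (17.1) and Stat2 (15.6), which overlapped. In the LKB1-deficient libraries Stat3 (94.9), Stat4 (80.8) and Stat5a (69.1) overlapped with their neighbours in the order. Stat6 (36.1), Stat5b (16.7) and Stat2 (11.0) followed without overlap. Stat5a thus overlapped with Stat6 in the controls and with Stat4 in the LKB1-deficient libraries.

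Of 17 protein-coding genes within 50 kb of a member, 15 were in the tables, 8 were tested, none was higher and 3 were lower, against 12.4% higher and 10.1% lower among all tested genes. Cnpy2, 29609 bases from Stat2, went from 154 ± 20.9 to 99 ± 8.83 CPM (edgeR adjusted p = 0.0136), a call lost with LKB1-deficient replicates 2 and 4 both left out (log2 fold change -0.59, adjusted p = 0.1001) and with the transcript length trend removed (-0.39, 0.054). Pan2, 10485 bases from Stat2, encodes a subunit of a deadenylase and went from 23.7 ± 0.503 to 17.9 ± 2.21 CPM (adjusted p = 0.0481), a call lost on leaving out any library other than LKB1-deficient replicate 3 (adjusted p = 0.0743 to 0.127). Nab2, a corepressor of EGR transcription factors whose 3' end overlaps Stat6 by 40 bases on the opposite strand, went from 84.8 ± 14.9 to 55.5 ± 10.7 CPM (adjusted p = 0.0331). Its call was lost on leaving out any library other than control replicate 4 and LKB1-deficient replicate 1 (0.0505 to 0.0836).

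The genes around the STATs were taken from 16 lists holding 159 genes, of which 134 were tested. Of these, 41 were higher and 21 lower, with a median log2 fold change of 0.15. Among all tested genes 12.4% were higher and 10.1% lower, with a median of 0. The counts of each list below are to be read beside these shares. Called lower were 13 list genes without control replicate 3, 14 when LKB1-deficient replicate 4 was left out and 11 when its replicate 2 was, where the share of all tested genes called lower was 4.32%, 4.17% and 4.5%. With LKB1-deficient replicates 2 and 4 both left out 14 were higher and 6 lower, where 1.48% and 0.895% of all tested genes were called in these directions. Of the called list genes that are named below, Il2ra, Il15ra, Il9, Il24, Socs3, Mx1, Il10, Furin and Pim1 were still called in that setting, and the others, from Ifng (adjusted p = 0.051) to Ep300 (0.457), were not.

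The Janus kinases phosphorylate the STATs, and 1 of the 4 was lower, where 10.1% of all tested genes were. Jak2, which serves the receptors for interferon-gamma, IL-12 and GM-CSF, was at 124, 128, 121 and 127 CPM in control replicates 1 to 4 and at 95.7, 104, 101 and 90.8 CPM in LKB1-deficient replicates 1 to 4. The groups did not overlap and each was tight. The log2 fold change was -0.35 ± 0.11 (edgeR adjusted p = 0.0404), and the call was lost on leaving out any library other than LKB1-deficient replicate 3 (adjusted p = 0.0629 to 0.107). Jak1, partner of many cytokine receptors, averaged 401 ± 120 and 408 ± 74.3 CPM (adjusted p = 0.955), Tyk2, of the interferon and IL-12 receptors, 27.6 ± 1.52 and 28.6 ± 9.46 CPM (0.868), and Jak3, partner of the common gamma chain, 28.5 ± 2.07 and 25.2 ± 3.52 CPM (0.369). The small positive log2 fold changes of Jak1 and Tyk2 turned negative with upper quartile (-0.07 and -0.04) and total count scaling (-0.15 and -0.09).

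Cytokine receptor chains that signal through STAT5 were called in both directions. Of the 11 tested, 4 were higher and 3 lower, with a median log2 fold change of -0.20. Il2ra, the alpha chain that gives the IL-2 receptor its high affinity, was at 248 to 478 CPM in the control and 920 to 1165 CPM in the LKB1-deficient libraries, 2.79-fold (edgeR adjusted p = 0.00341). Csf2rb and Csf2rb2, which encode beta chains of cytokine receptors, rose 12.3-fold and 9.77-fold and were highest in replicates 2 and 4 of the LKB1-deficient group, with 31.5 and 31.3 CPM for Csf2rb and 11.4 and 12.7 CPM for Csf2rb2. They are near-identical paralogs, and how the counting split their shared reads is not stated. Il15ra, which presents IL-15, went the other way in every library, from 43 ± 1.74 to 18.8 ± 0.613 CPM (adjusted p = 0.00151), and its call, like that of Il2ra, was kept in all 19 alternatives. Crlf2, a chain of the TSLP receptor, went from 42.8 ± 3.84 to 27.9 ± 6.4 CPM (adjusted p = 0.031), and lost its call on leaving out any of control replicates 1, 3 and 4 or of LKB1-deficient replicates 2 and 4 (adjusted p = 0.0556 to 0.0863). The number of lower chains was 1 on leaving out control replicate 3 or LKB1-deficient replicate 4, and 2 on leaving out either of control replicates 1 and 4 or LKB1-deficient replicate 2.

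The other receptor chains were grouped by the STAT they use. Of the 3 tested chains listed for STAT2, 1 was lower. Il10rb, shared by the IL-10 and lambda interferon receptors, went from 40.2 ± 2.43 to 27.3 ± 2.84 CPM (edgeR adjusted p = 0.0141). Ifnlr1, the other listed chain of the lambda interferon receptor, had 0 or 1 counts per library and was not tested. Whether Il10rb reaches STAT2 in these cells was not tested. Ifnar1, of the type I interferon receptor, averaged 98.4 ± 19 and 76.6 ± 3 CPM (adjusted p = 0.0979). Ifnar2, of the same receptor, averaged 86.6 ± 15.7 and 85.7 ± 20.1 CPM (0.959). Among 6 chains upstream of STAT3, Il6ra was higher, from 5.24 ± 1.34 to 11.3 ± 2.32 CPM (adjusted p = 0.0127), a call lost with the length trend removed (log2 fold change 0.62, adjusted p = 0.0735). Il21r averaged 134 ± 22.8 and 124 ± 22.2 CPM (adjusted p = 0.647). Il12rb1, a chain of the IL-12 receptor upstream of STAT4, went from 37 ± 8.51 to 55.3 ± 7.41 CPM (adjusted p = 0.043), with groups that overlapped. That call was lost on leaving out any of control replicates 1 to 3 or of LKB1-deficient replicates 1, 2 and 4 (adjusted p = 0.0589 to 0.114) and with upper quartile or total count scaling (0.0890 and 0.132). Il4ra, the tested chain upstream of STAT6, averaged 120 ± 36.2 and 169 ± 24.2 CPM (adjusted p = 0.113).

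Of 15 tested cytokine genes whose products act through STATs, 13 were higher and none lower, with a median log2 fold change of 3.30. Il9, a growth factor of mast cells and T cells, had 0.629 to 2.86 CPM in the control libraries and 124, 246, 12 and 281 CPM in LKB1-deficient replicates 1 to 4. Il24, of the IL-10 family, had 0.719 to 17.7 and 97 to 199 CPM (edgeR adjusted p = 0.00582). Both kept their calls in all 19 alternatives. The number of higher cytokine genes was 10 without control replicate 3, 9 with LKB1-deficient replicate 4 left out and 6 with both its replicates 2 and 4 left out. Of 7 markers of mast cells and basophils, 6 had counts in all 8 libraries. Among the 4 tested, 2 were higher, Il1rl1 and Gata2 (whose groups overlapped), where 12.4% of all tested genes were. Mcpt8 (edgeR adjusted p = 0.0511) and Kit (0.369) were not called. Their summed level was 6.88 to 10.5 CPM in the control and 12.1 to 37.9 CPM in the LKB1-deficient libraries for all 7 markers. In LKB1-deficient replicate 1, Cpa3, Kit, Gata2 and Fcer1a were below their control means, and Mcpt8, Ms4a2 and Il1rl1 above theirs. The part of such cells in these results was not tested. Markers of B cells summed to 7.23 to 12.6 and 4.56 to 7.88 CPM, with Pax5 at 0 in all libraries, those of macrophages or dendritic cells to 5.59 to 7.11 and 4.56 to 10.1 CPM, those of CD4 T cells to 6.56 to 9.08 and 3.23 to 9.003 CPM, and those of NK cells to 75.3 to 127 and 91.4 to 166 CPM. Most of the NK cell sum was Eomes, at 65.9 to 116 CPM in the control and 82.9 to 151 CPM in the LKB1-deficient libraries. Klre1 was at 7.66 to 13.2 CPM, and Ncr1 and Klrb1c had 0 to 3 and 0 to 7 counts per library.

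The inhibitors of the pathway were split. The SOCS genes encode feedback inhibitors that STATs induce, and of 8 tested 3 were higher and none lower. Socs3, which restrains receptors that use STAT3, was at 14.2 to 18 CPM in the control and 32.4 to 61.9 CPM in the LKB1-deficient libraries, 2.75-fold, a call kept in all 19 alternatives. Socs2, a target of STAT5, went from 21.2 ± 3.15 to 68.9 ± 37.3 CPM (edgeR adjusted p = 0.0123), with 93 and 108 CPM in replicates 2 and 4 of the LKB1-deficient group against 45 and 29.9 CPM in its replicates 1 and 3. Without replicates 2 and 4 together, 1 SOCS gene was higher. Of the 6 PIAS and SUMO genes, whose products block STATs in the nucleus, 0 were called by edgeR, DESeq2 or limma-voom. In edgeR 2 of the 6 stood under an unadjusted p of 0.05, as did 39.3% of all tested genes, and the median was -0.25. With edgeR, 1 of them was lower under total count scaling, with the length trend removed and without LKB1-deficient replicate 1.

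Of 10 phosphatases and adaptors that restrain the pathway, 4 were higher and 3 lower. Dusp3, a phosphatase, went from 3.54 ± 0.462 to 12.4 ± 6.28 CPM (edgeR adjusted p = 0.00991) and Cbl, a ubiquitin ligase, from 18.3 ± 7.15 to 46 ± 19.9 CPM (0.0265). Ptpn6, encoding the phosphatase SHP-1, went from 405 ± 81.4 to 259 ± 32.1 CPM (0.0269) and Pdlim2, which promotes breakdown of STATs, from 42.5 ± 3.78 to 26.6 ± 6.35 CPM (0.0222). The last 3 calls ended when single libraries were left out. Leaving out either of control replicates 3 and 4 or of LKB1-deficient replicates 2 and 4 ended the call of Cbl (adjusted p = 0.0695 to 0.0861), and that of Pdlim2 (0.0569 to 0.0635), and the call of Ptpn6 was lost for either of control replicates 2 and 3 or of LKB1-deficient replicates 2 and 4 (0.0544 to 0.0791). Cbl was also not called with the length trend removed (log2 fold change 0.67, edgeR adjusted p = 0.0523). With control replicate 3 or LKB1-deficient replicate 4 left out the list held 1 higher and no lower gene, with control replicate 4 left out 1 and 1, and with LKB1-deficient replicate 2 left out 2 and none. Without LKB1-deficient replicates 2 and 4 together it held 0 higher and 0 lower genes.

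Among 11 cofactors of STATs, 1 was higher and 2 lower, where 12.4% and 10.1% of all tested genes were. Ep300, an acetyltransferase gene, went from 29.6 ± 11 to 63.9 ± 27.9 CPM (edgeR adjusted p = 0.0427). Nmi, which binds several STATs, went from 127 ± 54.9 to 65.2 ± 5.67 CPM (0.0285), and Ndufa13, a respiratory chain subunit that also binds STAT3, from 319 ± 15.2 to 199 ± 43.5 CPM (0.0195). The call of Ep300 was lost on leaving out any of control replicates 2 to 4 or of LKB1-deficient replicates 2 and 4 (adjusted p = 0.0571 to 0.128), that of Nmi for control replicate 2 or any of LKB1-deficient replicates 1, 2 and 4 (0.0501 to 0.0821) and that of Ndufa13 for control replicate 3 or LKB1-deficient replicate 2 (0.0592 and 0.0527). With the length trend removed the calls of Ep300, Nmi and Ndufa13 were all lost (edgeR adjusted p = 0.113, 0.101 and 0.071). Their log2 fold changes were then 0.53, -0.73 and -0.42. Ep300 was not called by limma-voom either (adjusted p = 0.0505). The list held 0 higher and 0 lower genes with the length trend removed, and likewise without LKB1-deficient replicates 2 and 4 together. With single libraries left out the list held 0 to 3 higher and 0 to 2 lower genes. There were 3 higher without LKB1-deficient replicate 3, 2 without LKB1-deficient replicate 1 or without control replicate 1, and 0 for any other library. The number of lower genes was 1 without LKB1-deficient replicate 1, or without either of control replicates 2 and 3, and 0 without LKB1-deficient replicate 2.

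Genes listed as targets of each STAT were read beside the level of that STAT. Of 25 targets of the STAT2 and IRF9 complex, 10 were lower and none higher, with a median log2 fold change of -0.57. Mx1, an antiviral GTPase, was at 22.3 to 33.2 CPM in the control and 3.94 to 10.7 CPM in the LKB1-deficient libraries, 3.6-fold lower and called in all 19 alternatives. Mx2, its paralog, went from 8.87 ± 3.42 to 2.56 ± 0.858 CPM (edgeR adjusted p = 0.00996). The list held 8 to 10 lower genes when single libraries were left out and 5 without LKB1-deficient replicates 2 and 4 together.

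The targets of the other STATs were split into further lists. Of 18 tested targets of STAT5, 9 were higher and none lower, with a median of 0.56; Pim1, a survival kinase, went from 72.4 ± 15 to 204 ± 39.9 CPM (edgeR adjusted p = 0.00331), called in all 19 alternatives. The number of higher genes was 5 without control replicate 3 and 2 with LKB1-deficient replicates 2 and 4 both left out. Of 18 targets of STAT3, 8 were higher and 1 lower, with a median of 0.51. Il10 and Il21 had 0.0898 to 1.95 and 0 to 1.69 CPM in the control against 8.74 to 21.9 and 4.31 to 9.57 CPM in the LKB1-deficient libraries. Bcl6, a repressor of effector differentiation, was at 3.64 to 7.46 and 0.874 to 2.2 CPM (adjusted p = 0.0188), a call that ended without LKB1-deficient replicate 2 (0.0536).

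Of 10 tested targets of STAT4, 4 were higher and none lower, with a median of 0.53. Furin, a proprotein convertase induced by IL-12, was at 15.1 to 22 CPM in the control and 47.5 to 80.7 CPM in the LKB1-deficient libraries, called in all 19 alternatives, and Ifng at 452 to 1093 and 1983 to 3870 CPM. The number of higher STAT4 targets was 2 on leaving out either of control replicates 1 and 3 or of LKB1-deficient replicates 2 and 4. Of 8 tested targets of STAT6, 4 were higher and none lower, with a median of 1.78, and Il13 was at 0.988 to 10.4 CPM in the control and 28.5 to 76 CPM in the LKB1-deficient libraries. Without control replicate 4, 6 of 9 tested STAT6 targets were higher, and 3 of 7 were when counts were thinned. With LKB1-deficient replicates 2 and 4 both left out it was 2 of 10. In that setting 1 of 11 STAT4 targets and 5 of 19 STAT3 targets were higher, where 1.48% of all tested genes were. Several genes stand on more than 1 list, and a listed target can answer to other factors.

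**Figure D5:**
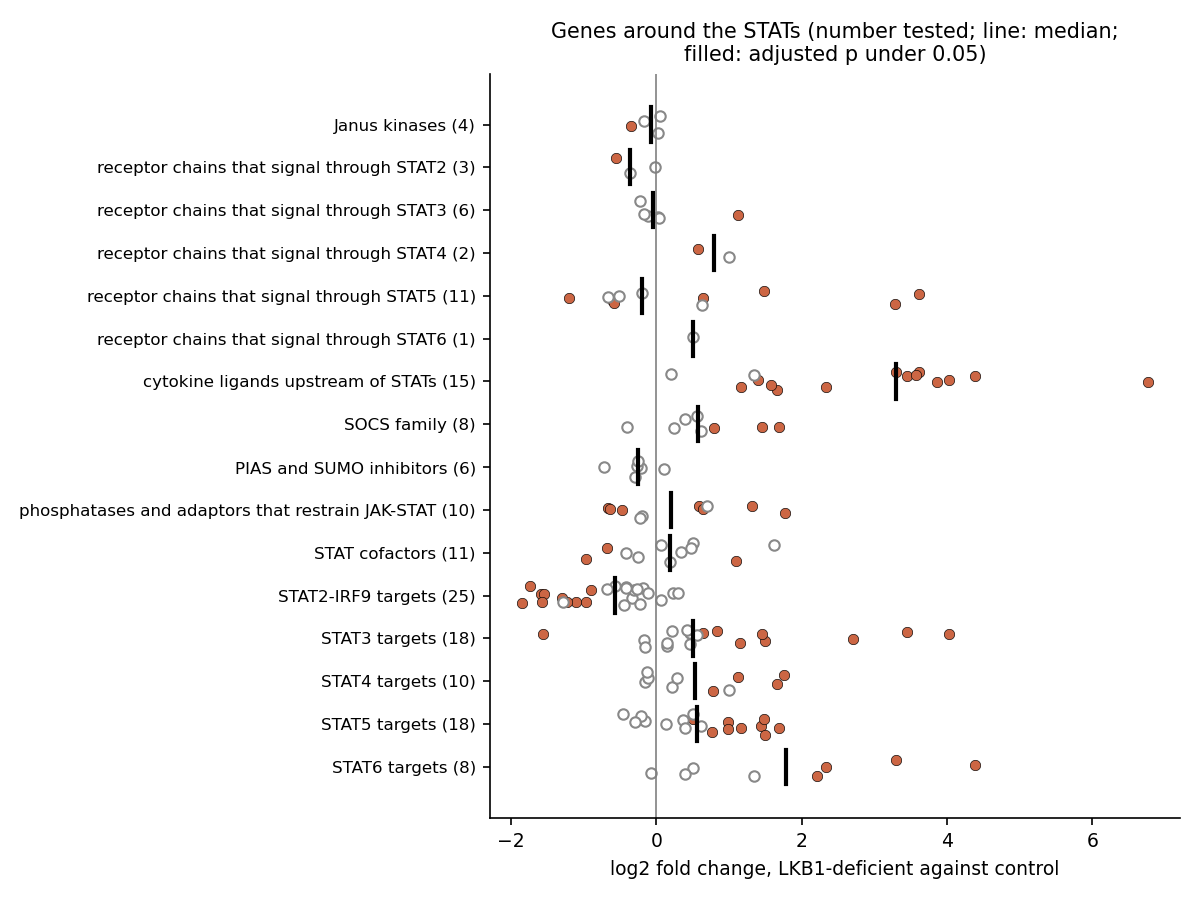
Log2 fold changes, LKB1-deficient against control (horizontal axis), of the tested genes in 16 lists around the STATs (rows, number tested in brackets), filled where the edgeR adjusted p is under 0.05, with a line at each median. The cytokine ligands have the highest median (3.30) and the targets of the STAT2 and IRF9 complex the lowest (-0.57).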

How the data were processed

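Raw counts of reads per gene were deposited by the authors, 1 table per library, from strand-specific 3' RNA-seq with oligo-dT primers per the labels' protocols. Reads were aligned with STAR to mm10 per the submitters' processing notes; the counting program, its settings, all versions and the annotation were not given in the sources used here. Lines at the end of each table that name no gene stayed out of library sizes and tests, and counts outside genes were 12.13% to 17.51%. PCR copies may have been counted more than once, as the labels name no molecular identifiers.

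In R 4.3.3, edgeR 4.0.16 kept genes by filterByExpr (minimum count 10, minimum total count 15), scaled libraries by TMM and fitted the 2 groups alone with the robust quasi-likelihood test; p-values were adjusted after Benjamini and Hochberg and called under 0.05. SE values are the absolute log2 fold change over the square root of F. Ratios were tested by exact permutation over libraries.

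The members, the lists and the rule for named genes were chosen with earlier results of these data known. Named were the members, Stk11, the Janus kinases, up to 2 genes with the largest rise and 2 with the largest fall of each list, the highest receptor chain of each list, the 3 profiles nearest each member and tested neighbours. Other members of the gene family are not analysed here. Positions and lengths come from GENCODE vM21 (GRCm38, also called mm10).

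Alternatives were DESeq2 1.42.0, voom in limma 3.58.1, total count and upper quartile scaling, keeping all genes or those of a mean CPM of at least 10, a replicate block, a term for the prefix of the identifiers, single libraries left out, LKB1-deficient replicates 2 and 4 left out together, thinning to 3454388 counts and removal of the transcript length trend.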

Additional observations from a re-analysis of the deposited data

Results flagged for a closer look

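Of 28 groups of 4 libraries checked (the members, the Janus kinases, Stk11 and the ratios), 1 held a library far from the others. Stat6 was at 181 CPM in control replicate 2 and at 115 to 118 CPM in the other controls, a gap of 0.952 of the whole range, above Dixon's critical value for 4 samples. Chance flags about 1 in 20 groups.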

How the results depend on the processing

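Stat5a kept its direction under all 19 alternatives and its call in 10, and Stat2 kept its direction under all and was called in 7. Stat5a was not called with upper quartile scaling (0.42), total count scaling (0.35), the replicate block (0.53, adjusted p = 0.0504) or LKB1-deficient replicates 2 and 4 left out (0.48), which left 0 members higher. Leaving out single libraries gave Stat5a 0.46 to 0.59 and 0 to 1 members higher. Stat2 was lower with upper quartile scaling (-0.60), total count scaling (-0.66), DESeq2 (-0.49), no filter (-0.54), genes of a mean CPM of at least 10 (-0.53) and the length trend removed (-0.63), which made 1 member lower; leaving out single libraries gave Stat2 -0.60 to -0.34 and 0 to 1 members lower.

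Signs turned for values near 0. Stat3 was -0.02 with upper quartile scaling, -0.07 with total count scaling and -0.22 with the length trend removed. Stat6 was -0.06, -0.12 and -0.03 under these, 0.00 with no filter and -0.01 when thinned. Stat5b was 0.12 without LKB1-deficient replicates 2 and 4, where Stk11 was 0.18, Jak1 -0.16 and Il21r 0.04. Stk11 was 0.03 when thinned and 0.03 with the length trend removed. Jak1 was -0.07 with upper quartile scaling, -0.15 with total count scaling, -0.02 with no filter, 0.00 among genes of a mean CPM of at least 10 and -0.17 with the length trend removed, and Tyk2 was -0.04, -0.09 and -0.12 with both scalings and the length trend removed. Leaving out single libraries gave Stat3 -0.12 to 0.20, Stat5b -0.12 to 0.06, Stat6 -0.03 to 0.22, Stk11 -0.22 to 0.08, Jak1 -0.17 to 0.14, Tyk2 -0.19 to 0.17 and Il21r -0.21 to 0.00.

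The counts of 41 higher and 21 lower list genes were 14 and 6 without LKB1-deficient replicates 2 and 4, and leaving out single libraries gave 28 to 42 higher and 11 to 22 lower. It gave log2 differences of 0.44 to 0.67 for the ratio of Stat5a to Stat5b and -0.48 to -0.27 for that of Stat4 to Stat6. The cause of these changes was not tested. Whether equal replicate numbers pair the libraries is not stated in the labels. Correlations of deviations between libraries of the same number were -0.251, 0.291, 0.3 and -0.0861 for numbers 1 to 4. Libraries of unlike numbers were not compared, so these values cannot settle it, and the replicate block is not read as evidence. The block called 1902 genes against 2337. The lower depth of the LKB1-deficient libraries limits genes of few counts more than the STAT members.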
